A study of Saccharomyces cerevisiae with 12 samples.

Results

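The genes of glycolysis, alcoholic fermentation, glycerol synthesis and hexose transport were followed here through nucleosome maps of Saccharomyces cerevisiae. The 34 genes were taken by name, of 6002 protein-coding genes with sacCer3 coordinates, and each was read from 600 bp before its start codon to its stop codon. They were split by textbook knowledge of growth in glucose into 16 active genes, 12 genes that are glucose-repressed or low in glucose, and 6 others. The active genes were HXK2, PGI1, PFK1, PFK2, FBA1, TPI1, TDH2, TDH3, PGK1, GPM1, ENO2, CDC19, PDC1, ADH1, HXT1 and HXT3. The repressed genes were HXK1, GLK1, TDH1, ENO1, PYK2, PDC6, ADH2, HXT2, HXT4, HXT5, HXT6 and HXT7, and the others were PDC5, ADH3, ADH4, ADH5, GPD1 and GPD2. Transcription was not measured in these samples, so the classes rest on that background and not on these data.

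Micrococcal nuclease cuts the DNA between nucleosomes, and sequencing of the DNA left over (MNase-seq) maps where nucleosomes sit. The study compared wild-type BY4741, a haploid laboratory strain that carries deletions of auxotrophic marker genes, with a strain labelled as an Ioc3 knockout (Ioc3-KO) and with the Ioc3 point mutants R739E/R742E (Ioc3-R739E/R742E) and Q251K/D252K (Ioc3-Q251K/D252K). All cells grew in YPD, a rich glucose medium, at 30 °C until mid-log phase, and the nuclease was used at 600, 1200 or 2400 gel units per ml. There were 3 wild-type groups (WT1, WT2, WT3) and 1 group per Ioc3 genotype, each of 2 biological replicates that the authors joined in 1 list of nucleosomes, called a pool below.

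Yeast in glucose ferments: hexose transporters bring glucose in, glycolysis turns it into pyruvate, and pyruvate decarboxylase and alcohol dehydrogenase turn pyruvate into ethanol. Many steps are served by paralogs, of which one is used in glucose and another is kept low until glucose runs out. Ioc3 is a subunit of ISW1a, a remodeler that slides and spaces nucleosomes with the ATPase Isw1. Strongly transcribed genes are known to have disturbed nucleosomes over their coding regions, while silent genes often keep regular arrays.

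The pools listed 76013 to 77652 nucleosomes with 10282804 to 10350515 reads, and 455 to 478 of those nucleosomes lay in the windows of the 34 genes. Of 419 consensus positions (dyads) in these windows, 380 were matched in all 6 pools (90.7%, against 93% over all genes). In the main tests below, counts of dyads of the 34 genes are out of these 380. IOC3 itself held 2392, 2426 and 2570 reads in wild type and 825 in Ioc3-KO, while the point mutants held 2355 and 2228. The knockout pool still listed 5 nucleosomes over its coding region, against 16 to 18 in wild type. The sample titles do not give the extent of the deletion. A stretch of chromosome IV from 880001 to 980000 was raised in the Ioc3-Q251K/D252K pool, with median log2 differences in read density of 0.78 to 0.89 in its 10 kb bins, and none of the 34 genes lies there. The shares of all genes or dyads called in that pool, for reads and for height, include this stretch. They are therefore not a like reference for the 34 genes. Wild-type values below are means ± SD over 3 pools, and each Ioc3 genotype is 1 pool without replicate error. The reads carry no molecular identifiers, so a count is not a number of independent molecules and depth gives counting error only. Reads of near-identical copies (TDH2 and TDH3, ENO1 and ENO2, ADH1 and ADH2, PDC1 and PDC5, HXT6 and HXT7, HXT1 and HXT3) are uncertain, since the treatment of reads that map to several places is not given in the sources used here.

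In wild type, nucleosomes over the coding regions of the active genes were poorly positioned and low. Fuzziness, the standard deviation of read positions within a listed nucleosome, had a median of 38.0 ± 0.20 bp over the active genes, 36.2 ± 0.20 bp over the repressed genes, 35.0 ± 0.91 bp over the others and 30.2 ± 0.26 bp over all genes (n = 3 pools). All 16 active genes lay above the median of all genes, as did 10 of the 12 repressed genes and all 6 others. The difference of active minus repressed was 1.73 ± 0.28 bp, and it was positive in 6 of 6 pools. Genes are not replicates, so no test across genes was made. Peak height, the signal at the summit of a nucleosome, was set over each pool's median and taken as log2, and its gene medians were -0.49 ± 0.09 for the active genes, 0.12 ± 0.04 for the repressed genes and 0.09 ± 0.01 for all genes. Of the matched dyads in coding regions, 100 of 132 in active genes (75.8%) belonged to the weakest 25% of the genome by height. The corresponding count was 17 of 105 (16.2%) in repressed genes, against 23.8% over all genes.

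**Figure D1:**
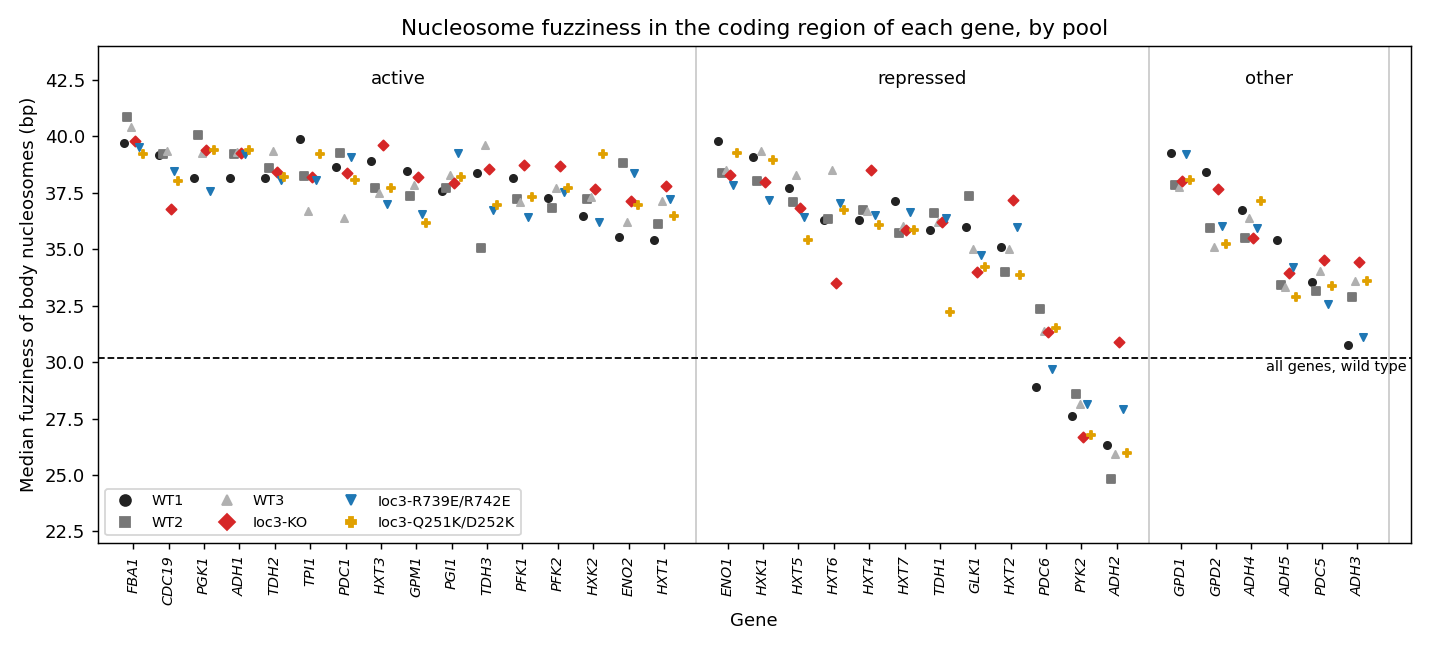
Median fuzziness (bp) of the nucleosomes between start and stop codon for each of the 34 genes, with 1 marker per pool and genes ordered by their wild-type mean within each class. The dashed line is the median of all genes in wild type (30.2 bp). The 16 active genes lie above it in every pool, while ADH2 and PYK2 lie below it except for ADH2 in Ioc3-KO at 30.9 bp.

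Without the weakest 25% of nucleosomes the class difference in fuzziness was 0.23 bp. Those nucleosomes lie mostly in the active genes, as the counts above show, so values without them leave out unequal parts of the classes. FBA1 (aldolase, which splits fructose bisphosphate), CDC19 (the main pyruvate kinase) and PGK1 (phosphoglycerate kinase) had the highest fuzziness, at 40.3 ± 0.59, 39.2 ± 0.08 and 39.1 ± 0.95 bp. ADH2 (the alcohol dehydrogenase that consumes ethanol), PYK2 (the minor pyruvate kinase) and PDC6 (a minor pyruvate decarboxylase) had the lowest, at 25.7 ± 0.79, 28.1 ± 0.49 and 30.9 ± 1.78 bp. Peak heights were lowest at CDC19, HXK2 and PFK2, at log2 values of -1.0015 ± 0.15, -0.80 ± 0.08 and -0.695 ± 0.07. They were highest at ADH2, PDC5 and PYK2, at 0.52 ± 0.03, 0.40 ± 0.01 and 0.31 ± 0.05.

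Summits also repeated less well from pool to pool in active genes. Over the 3 wild-type pools, the summits of a matched coding-region dyad spanned a median of 12 bp in active genes, 7 bp in repressed genes, 6 bp in the others and 5 bp over all genes. A span of at most 5 bp was found for 11.4% of these dyads in active genes and 39% in repressed genes, against 50.8% over all genes. By gene, the median span ran from 4 bp at ADH2 and 5 bp at PDC5, PDC6 and ADH5 to 26 bp at TDH3, 38 bp at HXT3 and 43 bp at PGK1.

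Read density and the distance between listed summits followed the same split, with exceptions. The log2 read density of coding regions over the pool's all-gene median was -0.09 ± 0.05 for active and 0.15 ± 0.03 for repressed genes. Active genes were lower in 6 of 6 pools, with a difference of -0.24 ± 0.03, which was -1.19 without the weakest 25% of nucleosomes. Density was lowest at HXK2, PFK1 and CDC19 (log2 -0.42 ± 0.07, -0.40 ± 0.12 and -0.30 ± 0.17), and it was highest at HXT6, HXT7 and PDC5 (0.64 ± 0.06, 0.635 ± 0.14 and 0.48 ± 0.0033). The median distance between neighbouring summits was 147 ± 3.47 bp in active and 161 ± 2.13 bp in repressed genes, against 162 ± 0.29 bp over all genes. This order reversed, to 15.4 bp longer in active genes, once the weakest 25% of nucleosomes was left out. The distance was shortest at ADH1, GPM1 and CDC19 (98.7 ± 6.81, 119.8 ± 26.3 and 123 ± 10.6 bp). It was longest at PDC6, HXT2 and, alike, HXT4 and ADH3 (170.8 ± 2.02, 168 ± 4.36, 166.8 ± 8.13 and 166.8 ± 2.47 bp). Summits are listed from pooled cells, so these distances need not separate nucleosomes on the same DNA molecule.

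Promoters of the 34 genes held few nucleosome reads. The 600 bp before the start codon held a median of 214 ± 9.44 reads for active genes, 281 ± 10.6 for repressed genes and 425 ± 7.97 for all genes in wild type. Only HXT1 among the active genes, and PDC6 and ADH2 among the repressed genes, lay above the median of all genes. Matched promoter dyads outside other coding regions were 39 of 43 (active), 32 of 36 (repressed) and 16 of 18 (others). Over all genes they were 11945 of 18021, so more of those windows reach into neighbouring genes. The part of this in the read counts was not tested. The fewest reads were at GLK1 (glucokinase, 111 ± 14.2), TDH3 (149 ± 16.3) and, alike, HXT3 and PGK1 (155.7 ± 33.0 and 155.7 ± 52.3). The most were at ADH5 (517 ± 14.6), PDC6 (504 ± 95.1) and ADH2 (477 ± 29.5). The widest gap between neighbouring summits was taken among gaps whose middle lay in this promoter window or at most 50 bp into the coding region. Its width was 223 ± 15.0 bp in active genes, 199 ± 11.7 bp in repressed genes and 209 ± 1.15 bp over all genes. Such a gap can lie far upstream, as in ADH2, where it ran from -685 to -508 bp in WT1. Pools could also differ in the gap chosen. In GLK1 it began at -608, -601 and -80 bp in WT1, WT2 and WT3. Without the weakest 25% of nucleosomes the difference of active minus repressed was 356.5 bp in place of 24.2 ± 13.3 bp. In wild type the gap was widest at PFK2, PYK2 and FBA1 (311.7 ± 26.1, 277 ± 3.61 and 275.7 ± 6.66 bp) and narrowest at HXT2, ADH5 and ADH2 (171.7 ± 3.51, 173 ± 14.7 and 177.3 ± 1.53 bp).

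Among the paralogs of the last steps of fermentation, the contrast was wide. ADH1 (YOL086C, chromosome XV, 159548 to 160594, minus strand) encodes the main fermentative alcohol dehydrogenase, and ADH2 (YMR303C, chromosome XIII, 873291 to 874337, minus strand) its glucose-repressed paralog. ADH2 fuzziness was 26.3, 24.8 and 25.9 bp in WT1, WT2 and WT3, and ADH1 fuzziness was 38.2, 39.2 and 39.3 bp. The wild-type ranges of the pair did not overlap. The median spacing of listed summits was 164, 165 and 164 bp in ADH2 and 104, 101 and 91 bp in ADH1. The matched summits of both repeated closely over the wild-type pools, with median spans of 4 bp in ADH2 and 7 bp in ADH1. In ADH1 this covers 5 matched dyads, while WT1, WT2 and WT3 listed 8, 8 and 10 nucleosomes. In ADH2 it covers 6 matched dyads, and each of these pools listed 6. PDC1 (the main pyruvate decarboxylase) had 38.7, 39.3 and 36.4 bp, PDC5 (its backup) 33.6, 33.1 and 34.03 bp, and PDC6 28.9, 32.4 and 31.4 bp. PDC1 lay above both paralogs in every wild-type pool. The mitochondrial ADH3 had 32.4 ± 1.48 bp, ADH4 36.2 ± 0.64 bp and ADH5 34.05 ± 1.19 bp. The glycerol-3-phosphate dehydrogenase genes GPD1 and GPD2 had 38.3 ± 0.85 and 36.5 ± 1.73 bp.

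**Figure D2:**
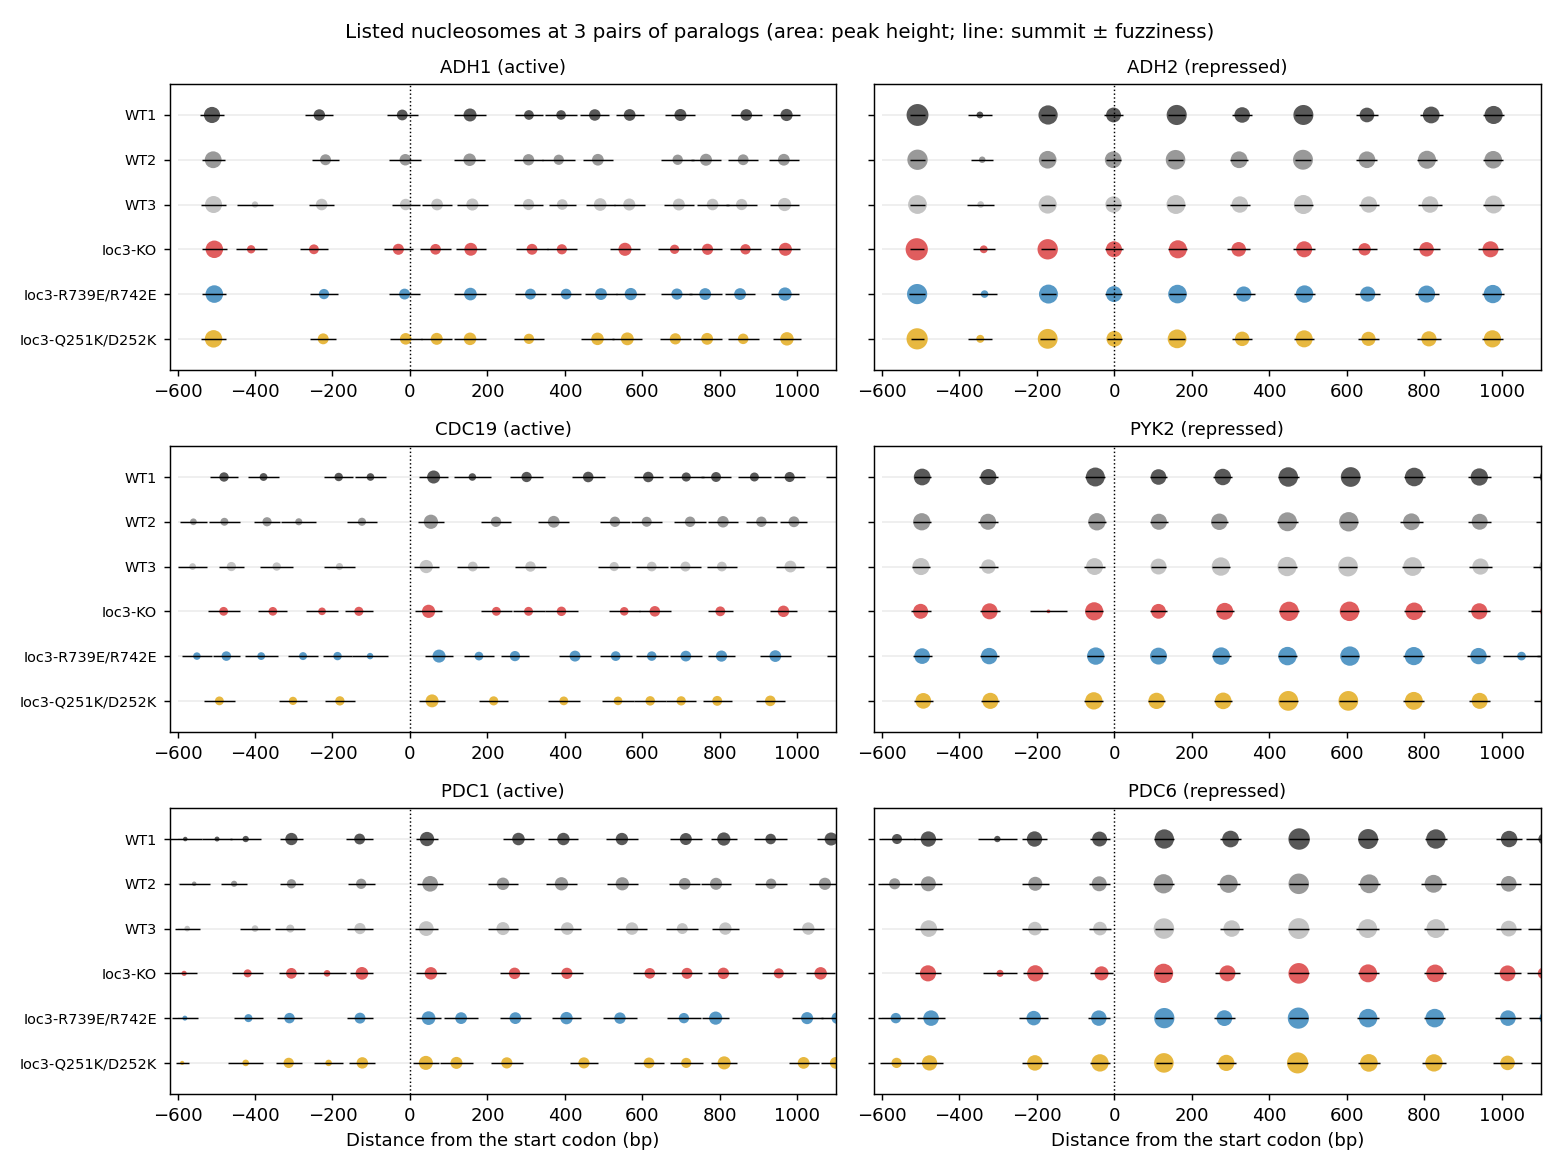
Listed nucleosomes of ADH1 and ADH2, CDC19 and PYK2, and PDC1 and PDC6 in each pool, by distance from the start codon (bp). The panels end before the stop codons of CDC19, PYK2, PDC1 and PDC6, while the medians given here are over whole coding regions. Marker area is proportional to peak height and the line spans the summit ± fuzziness. In the wild-type pools the median fuzziness lies between 24.8 and 32.4 bp for the repressed genes on the right and between 36.4 and 39.3 bp for the active genes on the left, and the nucleosomes of ADH2 are broader in Ioc3-KO (30.9 bp).

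In lower glycolysis, CDC19 (YAL038W, chromosome I, 71786 to 73288) had 39.2, 39.2 and 39.3 bp of fuzziness in the wild-type pools, and PYK2 (YOR347C, chromosome XV, 984942 to 986462) had 27.6, 28.6 and 28.1 bp. These 2 ranges were far apart. The glyceraldehyde-3-phosphate dehydrogenase genes TDH3, TDH2 and TDH1 had 37.7 ± 2.35, 38.7 ± 0.60 and 36.2 ± 0.37 bp. TDH1 lay below TDH2 in each wild-type pool, but its range overlapped that of TDH3. The enolase genes ran the other way: ENO1, the repressed copy, had 39.8, 38.4 and 38.5 bp, and ENO2, the active copy, had 35.5, 38.8 and 36.2 bp. Their ranges overlapped. GPM1 (phosphoglycerate mutase) had 37.9 ± 0.56 bp.

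In upper glycolysis the kinases that trap glucose did not follow the class split. HXK1, the repressed hexokinase, had 39.1, 38.0 and 39.3 bp of fuzziness, above HXK2, the hexokinase used in glucose, at 36.5, 37.2 and 37.3 bp. GLK1 had 36.0, 37.4 and 35.0 bp, a range that overlapped that of HXK2. FBA1, at 40.3 ± 0.59 bp, had the highest fuzziness of the 34 genes. PGI1 (phosphoglucose isomerase) had 37.9 ± 0.38 bp, the phosphofructokinase subunits PFK1 and PFK2 had 37.5 ± 0.59 and 37.3 ± 0.45 bp, and TPI1 (triose phosphate isomerase) had 38.3 ± 1.59 bp.

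The hexose transporters divided less clearly. HXT3, a low-affinity transporter used in glucose, had 38.0 ± 0.76 bp, and HXT1, the other, had 36.2 ± 0.86 bp. Of the transporters that are low in abundant glucose, HXT2 had 34.7 ± 0.60, HXT4 36.6 ± 0.24, HXT5 37.7 ± 0.60, HXT6 37.0 ± 1.26 and HXT7 36.3 ± 0.76 bp. Only HXT2 lay below HXT1 in every wild-type pool. HXT5, HXT6 and HXT7 were among the most densely covered of the 34 coding regions, with log2 densities of 0.46 ± 0.02, 0.64 ± 0.06 and 0.635 ± 0.14. HXT3 had -0.15 ± 0.14.

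The comparison of each Ioc3 pool with wild type asked how loss or mutation of Ioc3 changes nucleosomes. For fuzziness, a smaller share of these genes than of all genes lay above wild type. In Ioc3-KO, 10 of 34 genes had body fuzziness above every wild-type pool, against 62% of all genes, and 8 of 34 lay below every wild-type pool, against 9.38%. The 10 were HXK2, PFK1, PFK2, HXT1, HXT3, ADH2, HXT2, HXT4, PDC5 and ADH3. In Ioc3-R739E/R742E and in Ioc3-Q251K/D252K, 4 of 34 genes each lay above, against 45% and 38.2% of all genes. Below every wild-type pool were 13 and 10 genes, against 13.9% and 17.9%. None of the 34 genes lay above wild type in all 3 Ioc3 pools, against 21.5% of all genes, and CDC19, GLK1 and HXT5 lay below in all 3, against 2.12%. Body fuzziness of CDC19 was 36.8, 38.5 and 38.0 bp in Ioc3-KO, in Ioc3-R739E/R742E and in Ioc3-Q251K/D252K. The comparisons share the wild-type pools. Whether the genes differ from the genome was not tested. The higher wild-type fuzziness and lower heights of these genes stand beside these counts, and their part in them was not tested.

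By dyad, the median change in body fuzziness in Ioc3-KO was 0.41 bp for active genes, -0.19 bp for repressed genes and 1.35 bp for all genes. It was -0.06, -0.38 and 0.64 bp in Ioc3-R739E/R742E, and 0.17, -0.67 and 0.42 bp in Ioc3-Q251K/D252K. Of the repressed genes, ADH2 and HXT2 lay above every wild-type pool in both Ioc3-KO and Ioc3-R739E/R742E, and HXT4 in Ioc3-KO. HXT2 had 34.7 ± 0.60 bp in wild type, with WT1 highest at 35.1 bp, 37.2 bp in Ioc3-KO, 36.0 bp in Ioc3-R739E/R742E and 33.9 bp in Ioc3-Q251K/D252K. Body fuzziness of ADH2 was 30.9 bp in Ioc3-KO and 27.9 bp in Ioc3-R739E/R742E, both above the 3 wild-type values, and 26.0 bp in Ioc3-Q251K/D252K, within them. In the knockout, the 6 nucleosomes from 161 to 977 bp into ADH2 were each fuzzier than in every wild-type pool. Their differences from the wild-type mean ran from 3.12 to 6.59 bp.

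No dyad of the 34 genes changed in fuzziness in any of the 4 comparisons (limma, adjusted p under 0.05 over all 67653 dyads), and the shares called over the genome were 0.00148% in Ioc3-KO, 0% in Ioc3-R739E/R742E, 0.0103% in Ioc3-Q251K/D252K and 0% for all 3 Ioc3 pools together. At an unadjusted p under 0.05 there were 37 such dyads in Ioc3-KO, 23 in Ioc3-R739E/R742E, 25 in Ioc3-Q251K/D252K and 32 for the pools together, against 15.5%, 7.17%, 6.55% and 11.8% of all dyads. The smallest p-values in the knockout were at HXT6 -490 (9.68 ± 2.19 bp, estimate ± SE, adjusted p 0.134), HXT3 -179 (6.52 ± 1.74), PDC5 -367 (9.18 ± 2.56) and PDC1 +47 (7.43 ± 2.08), where the number is the distance from the start codon. In Ioc3-R739E/R742E they were at ENO2 -125 (8.93 bp), HXT3 -179 (7.62 bp), HXT7 -425 (-8.87 bp) and GPD2 -184 (11.5 bp), with adjusted p from limma of 0.437 or more. In Ioc3-Q251K/D252K they were at PDC1 -579 (-22.0 bp, adjusted p 0.162), ADH5 -222 (9.47 bp), PFK2 +1603 (6.44 bp) and HXK2 -421 (-5.78 bp). For all Ioc3 pools they were at HXT3 -179 (5.77 bp), ADH2 +489 (5.06 bp), HXT1 +272 (5.84 bp) and HXT6 -490 (6.12 bp), with adjusted p of 0.262 or more.

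Summit position was called at 3 of the 380 dyads (limma, adjusted p under 0.05). All 3 were called in Ioc3-KO and lay in coding regions of hexose transporters. This is a smaller share than the 1.28% of all dyads called in that comparison. In HXT6 (YDR343C, chromosome IV, 1159608 to 1161320, minus strand) the summit lay at 836, 838 and 839 bp in wild type, 903 bp in Ioc3-KO, 840 bp in Ioc3-R739E/R742E and 847 bp in Ioc3-Q251K/D252K. The estimate was 65.3 ± 2.03 bp (SE, adjusted p 0.0335). Between 669 and 1015 bp the knockout listed 1 summit where the other pools listed 2. In HXT1 (YHR094C, chromosome VIII, 290913 to 292625, minus strand) the summit lay at 1206, 1209 and 1204 bp in wild type and 1268 bp in Ioc3-KO, a difference of 61.7 ± 2.75 bp (adjusted p 0.0347). WT3 and Ioc3-R739E/R742E also listed summits at 1280 and 1281 bp of HXT1. In HXT2 (YMR011W, chromosome XIII, 288079 to 289704) the summit lay at 1366, 1358 and 1359 bp in wild type and 1295 bp in Ioc3-KO, a difference of -66.0 ± 4.29 bp (adjusted p 0.0451). Next in rank, ADH4 +335 had -13.7 ± 1.56 bp (adjusted p 0.0913). At an unadjusted p under 0.05 there were 54 dyads of the 34 genes in the knockout, against 18.2% of all dyads. The calls at HXT6, HXT1 and HXT2, and all others over the genome, were lost with mean read positions and without any 1 wild-type pool. They were also lost with a matching limit of 50 bp. That limit dropped the dyads of these 3 genes before testing, since their knockout summits lie farther from the consensus dyad. The 3 estimates (65.3, 61.7 and -66.0 bp) are close to the main matching limit of 70 bp. Whether a different listed summit was matched in the knockout, in place of a moved nucleosome, was not tested.

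No position was called at these genes in the other comparisons. The shares called over the genome were 0% in Ioc3-R739E/R742E, 0% in Ioc3-Q251K/D252K and 0.185% for all Ioc3 pools. At an unadjusted p under 0.05 the 34 genes had 36, 42 and 34 dyads, against 8.6%, 8.84% and 12.1% of all dyads. The smallest p-values in Ioc3-R739E/R742E were at PFK1 +68 (55.3 bp, adjusted p 0.0916 from limma), HXT2 +1197 (27.7 bp), PFK1 +1994 (-27.7 bp) and PFK1 +2769 (-22.0 bp). Those in Ioc3-Q251K/D252K were at HXT1 +1206 (66.7 bp, adjusted p 0.0748), ENO1 +662 (-36.3 bp), TPI1 +471 (49.3 bp) and HXT2 +1358 (64.0 bp, opposite to the knockout). For the 3 pools together they were at PGI1 -195 (23.0 bp), HXT7 +1124 (-7.67 bp), PDC5 +1618 (-9.33 bp) and PFK2 +152 (14.0 bp), with adjusted p of 0.226 or more.

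Nucleosomes in the promoters of the repressed genes were higher in the Ioc3 pools. Median log2 differences of promoter peak height from wild type were 0.44 in Ioc3-KO, 0.25 in Ioc3-R739E/R742E and 0.38 in Ioc3-Q251K/D252K for repressed genes. The active genes had 0.26, 0.12 and 0.13, and all genes had 0.21, 0.09 and 0.14. Single wild-type pools against the other 2 gave 0.16, -0.13 and -0.02 for the repressed genes. All 3 Ioc3 pools lay above every wild-type pool at 19 of 36 promoter dyads of repressed genes, 6 of 43 of active genes and 1 of 18 of the others, which is 26 of 97 in all, against 26.4% over all genes. At an unadjusted p under 0.05, heights of 75, 32 and 55 dyads of the 34 genes differed in Ioc3-KO, in Ioc3-R739E/R742E and in Ioc3-Q251K/D252K, against 17.7%, 6.54% and 12.6% of all dyads, and 74 for the pools together, against 17.2%. The difference between the classes was not tested, and the 34 genes together had a share close to that of the genome.

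Those 19 dyads were spread over 10 genes: 4 of 4 at HXT2, 3 of 4 at TDH1, 2 of 2 at ENO1, 2 of 3 at HXT4 and at HXT6, 2 of 4 at HXK1, and 1 each at HXT5, HXT7, ADH2 and PYK2. GLK1 and PDC6 had none. The medians used for scaling were lower in the Ioc3 pools than the wild-type mean by log2 differences of -0.12, -0.05 and -0.06, in the order of the genotypes above. With heights as deposited the counts were 16 of 36, 6 of 43 and 0 of 18, against 16.5% over all genes. Without dyads that lie in a neighbouring coding region they were 18 of 32, 6 of 39 and 1 of 16, against 30.9% over all genes.

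**Figure D3:**
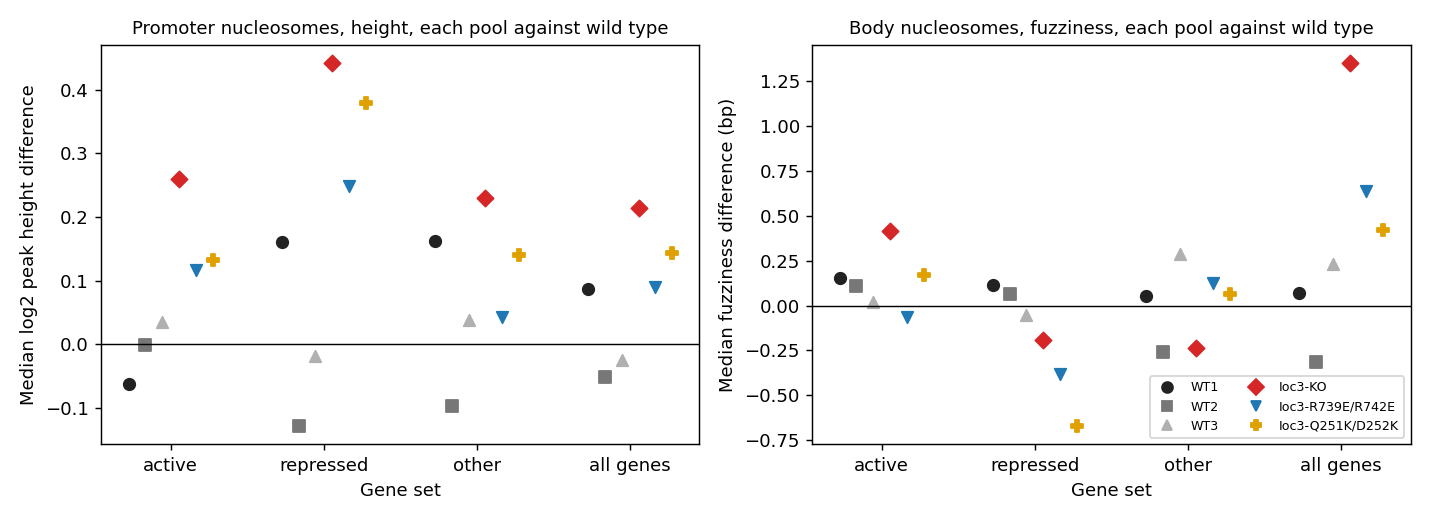
Median difference from wild type for each pool and class, for log2 peak height of promoter dyads (left) and fuzziness in bp of coding-region dyads (right). Each Ioc3 pool is set against the mean of the wild-type pools and each wild-type pool against the other 2. Promoter heights of repressed genes reach 0.44, 0.25 and 0.38 in the Ioc3 pools, and fuzziness of the repressed genes lies at -0.19, -0.38 and -0.67 bp where all genes lie at 1.35, 0.64 and 0.42 bp.

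Single promoter dyads passed the test at low heights. In Ioc3-KO, 2 dyads rose (by limma at adjusted p under 0.05, where 0.223% of all dyads were called). The dyad at HXT4 -511 (HXT4, YHR092C, chromosome VIII, 287081 to 288811, minus strand) lies in a neighbouring annotated coding region, AHT1. It held 11, 8 and 14 reads in wild type and 32 in Ioc3-KO, with a log2 height difference of 1.43 ± 0.18 (SE, adjusted p 0.0233). HXT2 -430 held 13, 13 and 19 reads in wild type and 28 in Ioc3-KO (1.14 ± 0.14, adjusted p 0.0259). The knockout lay above all wild-type pools at both. Without WT1, WT2 or WT3 the calls in the knockout numbered 13, 5 and 8, against 1.94%, 1.03% and 1.17% of all dyads. The next dyads were PDC1 -420 (0.79 ± 0.15, adjusted p 0.0657) and ADH4 +785 (-0.69 ± 0.14, adjusted p 0.0772). In Ioc3-R739E/R742E none passed (0.0163% of all dyads called), and the smallest p-values were at PDC1 -420 (0.73), HXT4 -511 (0.82), GPD1 -135 (-0.64) and PFK1 +2769 (-0.63), with adjusted p from limma of 0.309 or more.

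In Ioc3-Q251K/D252K, 2 dyads rose and 1 fell (0.828% of all dyads called). HXK2 -421 (HXK2, YGL253W, chromosome VII, 23935 to 25395) had a peak height of 0.315, 0.327 and 0.364 in wild type, 0.809 in Ioc3-Q251K/D252K, 0.449 in Ioc3-KO and 0.320 in Ioc3-R739E/R742E. The log2 difference was 1.33 ± 0.15 (SE, limma adjusted p 0.0131). PFK1 -526 had 0.281, 0.268 and 0.246 in wild type and 0.490 in that mutant (0.95 ± 0.15, adjusted p 0.0267). PFK2 +1603, in the coding region, had 0.899, 0.916 and 0.882 in wild type and 0.524 in the mutant (-0.72 ± 0.14, adjusted p 0.0491). That last call was lost with heights as deposited. Without WT1, WT2 or WT3 the calls in this mutant numbered 9, 7 and 5, against 2.04%, 1.54% and 1.48% of all dyads. Next was TDH1 -45 (0.72 ± 0.15, adjusted p 0.0633).

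Set together, the 3 Ioc3 pools were higher than wild type at 3 promoter dyads (limma, adjusted p under 0.05, 0.472% of all dyads called). TDH3 -164 (TDH3, YGR192C, chromosome VII, 882812 to 883810, minus strand) had 0.383, 0.504 and 0.384 in wild type and 0.684, 0.611 and 0.655 in the Ioc3 pools (0.70 ± 0.12, adjusted p 0.0355). Its matched summits lay at -157, -160 and -166 bp in wild type, -168 bp in Ioc3-KO, and -214 and -221 bp in the point mutants. ADH2 -342 had 0.311, 0.290 and 0.301 in wild type and 0.416, 0.390 and 0.433 in the Ioc3 pools (0.53 ± 0.10, adjusted p 0.0453). HXT4 -157 had 0.825, 0.420 and 0.585 in wild type and 1.09, 1.02 and 1.31 in the Ioc3 pools (1.02 ± 0.20, adjusted p 0.0477). At all 3 the groups did not overlap, and none passed with heights as deposited. Leaving out WT2 gave 1 call (0.0709% of all dyads), and leaving out WT3 or Ioc3-KO gave 0 (0.0887% and 0.0222%). Leaving out WT1 or Ioc3-R739E/R742E gave 6 each (1.09% and 0.956%). All 8 dyads called for height belong to the weakest 25% of the genome. Next came HXT6 -152 (0.72 ± 0.15, adjusted p 0.0617).

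Reads were also summed over each promoter. All 3 Ioc3 pools lay above every wild-type pool at 7 of 34 genes (PFK1, TDH3, TDH1, HXT2, HXT5, HXT6 and HXT7), against 11% of all genes, and none of the 34 lay below in all 3, against 7.96%. HXT7 held 239, 144 and 126 reads in wild type and 295, 268 and 407 in Ioc3-KO, in Ioc3-R739E/R742E and in Ioc3-Q251K/D252K. HXT5 held 314, 309 and 328 in wild type and 374, 349 and 404 in the Ioc3 pools. TDH1 held 392, 401 and 379 in wild type and 470, 440 and 485 in the Ioc3 pools. Of these genes, PFK1 alone passed the test.

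PFK1 (YGR240C, chromosome VII, 970771 to 973734, minus strand), a phosphofructokinase subunit, held 196, 195 and 211 promoter reads in wild type and 348, 306 and 336 in the Ioc3 pools. The log2 difference was 0.63 ± 0.08 (SE, edgeR quasi-likelihood, adjusted p 0.0359, 0.4% of all genes called). The wild-type pools listed 4 nucleosomes in the window and the Ioc3 pools 5. When the window ran on to 100 bp after the start codon, an alternative added after the data were seen, wild type held 307, 310 and 318 reads of PFK1 and the Ioc3 pools 485, 306 and 435. The difference was then 0.31 (edgeR, adjusted p 0.473). Ioc3-R739E/R742E listed no reads from the start codon to 100 bp after it, where the other pools did. In that pool the summit of the first coding-region dyad lay farther downstream, so the wider window also has a summit that crosses its edge. The call was also lost with a window of 400 bp and without any of the 6 pools. The next genes for all Ioc3 pools were HXT7 (0.85 ± 0.26), HXT6 (0.30 ± 0.10) and TDH1 (0.17 ± 0.06), each with an adjusted p of 0.405.

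**Figure D4:**
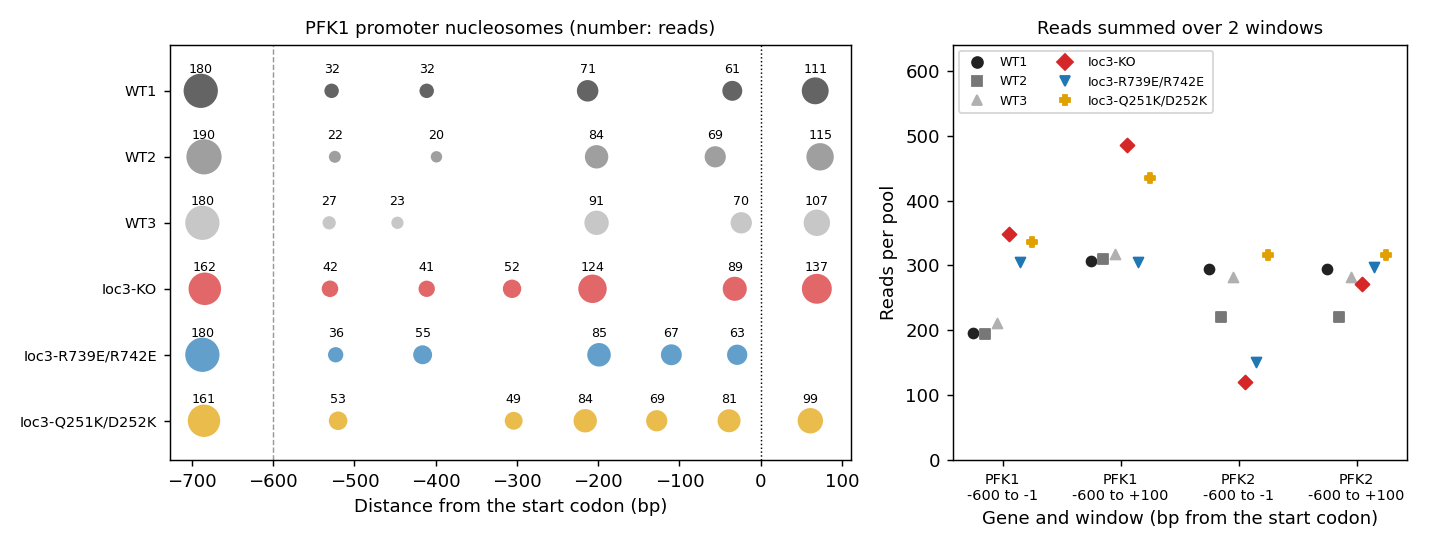
Left, listed nucleosomes from before the promoter window to 100 bp into PFK1 in each pool, with the reads of each nucleosome printed above it and the window edge dashed. Right, reads per pool for PFK1 and PFK2 in the window up to the start codon and in the window that runs to +100 bp. PFK1 is higher in all 3 Ioc3 pools in the first window (306 to 348 against 195 to 211 reads). In the second, Ioc3-KO and Ioc3-Q251K/D252K hold 485 and 435 reads and the wild-type pools 307 to 318. Ioc3-R739E/R742E stays at 306, with no reads listed between the start codon and +100 bp.

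No promoter total of the 34 genes passed in the single genotypes, where the shares called over all genes were 0% in Ioc3-KO, 0% in Ioc3-R739E/R742E and 0.467% in Ioc3-Q251K/D252K (edgeR). At an unadjusted p under 0.05 there were 2, 4 and 7 genes, against 10.4%, 6.04% and 9.59% of all genes. DESeq2 called 1 in Ioc3-KO, 0 in Ioc3-R739E/R742E and 0 in Ioc3-Q251K/D252K. Lowest in Ioc3-KO were PFK2 (-1.26 ± 0.21, adjusted p 0.137), which DESeq2 called, PFK1 (0.68), GLK1 (0.53) and GPD1 (-0.97). The summit next to the start codon of PFK2 lay at -19, -38 and -8 bp in wild type, 2 bp in Ioc3-KO and 0 bp in Ioc3-R739E/R742E, so it crossed the window's edge. Up to +100 bp the knockout difference of PFK2 was -0.08. In Ioc3-R739E/R742E the smallest p-values were at PFK1 (0.56), PFK2 (-0.85), HXK1 (0.65) and CDC19 (0.55), with adjusted p of 0.315 or more in edgeR. In Ioc3-Q251K/D252K they were at PFK1 (0.66), ADH2 (-0.32), HXT7 (1.18) and HXT6 (0.42), with adjusted p of 0.148 or more.

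Coding-region reads of the 34 genes did not pass in any comparison, against 0.1%, 0%, 1.04% and 0.1% of all genes for the knockout, the R739E/R742E mutant, the Q251K/D252K mutant and all Ioc3 pools (edgeR). At an unadjusted p under 0.05 there were 10, 1, 6 and 6 genes, against 12.3%, 5.87%, 9.49% and 11.1% of all genes. DESeq2 called HXT6 in Ioc3-KO and none in the other comparisons. The shares of all genes for the Q251K/D252K mutant include the raised stretch of chromosome IV, where none of the 34 genes lies. In the knockout, read density lay below every wild-type pool at 20 of 34 genes, against 30.7% of all genes, and above at TPI1 and HXT4, against 31.5%. ADH4 held 1069, 1098 and 1138 reads in wild type and 808, 934 and 905 in Ioc3-KO, in Ioc3-R739E/R742E and in Ioc3-Q251K/D252K. Its log2 differences were -0.43 ± 0.06, -0.23 ± 0.06 and -0.25 ± 0.06, with adjusted p of 0.140, 0.663 and 0.276, and -0.30 ± 0.06 for the 3 pools (adjusted p 0.224, edgeR). The other lowest p-values in Ioc3-KO were ENO1 (-0.43 ± 0.07), HXT6 (-0.34 ± 0.07) and TPI1 (0.34 ± 0.08).

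In Ioc3-R739E/R742E the genes after ADH4 were HXT2 (0.15), PFK1 (-0.19) and PDC5 (-0.08). In Ioc3-Q251K/D252K, HXT5 (-0.23) came first, and GPD1 (-0.35) and TPI1 (0.26) followed ADH4. For the pools together they were TPI1 (0.23), HXK2 (-0.14) and PDC5 (-0.10). Read density lay below wild type in all 3 Ioc3 pools at HXK2, PFK1, PDC6, PDC5 and ADH4, which is 5 of 34 against 9.78% of all genes. It lay above at TPI1, which is 1 of 34 against 9.19%.

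The other genes of glucose metabolism and its control (43 genes, among them regulators, glycerol and acetate enzymes and further transporters) had 123 matched promoter dyads and 443 matched coding-region dyads. Their median body fuzziness was 33.5 ± 0.24 bp in wild type. In Ioc3-KO, limma called 4 of their dyads downstream (ACS1, GPP1, HXT14 and RGT2) and 5 upstream (ACS2, ALD5, GCR1 and HXT15, the last with 2 dyads), against 1.28% of all dyads. All of them were lost under the same alternatives as the position calls above. Of these, the 50 bp limit drops any dyad with a farther summit before testing. The largest of these was ALD5 -22 (-67.3 bp, adjusted p 0.0335). Peak height rose in Ioc3-KO at 2 dyads, in CAT8 and PFK26 (0.223% of all dyads called in either direction). For all Ioc3 pools it rose at 4, in MTH1 (0.65), PFK26 (0.82), SNF3 (0.70) and TYE7 (0.54), against 0.472% of all dyads, and ACS2 +1143 moved by -55.7 bp. In Ioc3-Q251K/D252K it rose at 16 dyads, of which 14 were in ADR1, the activator of ADH2, and the others in MTH1 and PFK26, against 0.828% of all dyads. ADR1 (YDR216W, chromosome IV, 895035 to 899006) lies in the raised stretch of chromosome IV, and its coding-region reads were higher there by 0.76 ± 0.08 (edgeR, adjusted p 0.0135). No dyad of this list changed in Ioc3-R739E/R742E, and none fell in height in any comparison.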

How the data were processed

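MNase-seq reads came from 12 samples in 6 groups. Per the submitters' processing notes, Trimmomatic, Bowtie2 and SAMtools were used with sacCer3. The position caller, duplicate handling and mapping to repeats were not given in the sources used here. Each deposited list holds 1 row per nucleosome with both replicates of a group joined. Per the file headers, each row has a summit position, a mean read position with its standard deviation in bp (fuzziness), a peak height, which is a signal on a scale not stated, and a whole-number read count. Replicates labelled within a group cannot be told apart, so p-values measure the spread between pools. Which wild-type group belongs to which genotype is not stated, so all 3 served as reference.

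Summits of all pools were smoothed (Gaussian, SD 20 bp), consensus dyads were kept 100 bp or more apart, and the nearest summit within 70 bp was matched, which gave 67654 dyads matched in 6 pools of 72752. limma 3.58.1 tested position, fuzziness and log2 peak height (over each pool's own median) on all matched dyads. edgeR 4.0.16 (quasi-likelihood, TMM, low counts filtered) tested reads summed per gene. DESeq2 1.42.0 was an alternative. Adjustment was Benjamini-Hochberg, with calls at an adjusted p under 0.05. The lone Ioc3 pool of a genotype was assumed to vary like the wild-type pools. In the fit of all 3 Ioc3 pools the error also holds genotype differences. Work was done in R 4.3.3 and Python 3.11.15 (numpy 2.4.6, scipy 1.17.1, pandas 2.3.3, matplotlib 3.10.9). The tests of fuzziness and of coding-region reads were also run on simulated data with known changes. Those changes were larger than most reported here, so the runs do not cover small ones. Gene coordinates and names came from the RefSeq R64 gene table, with strand from the systematic name.

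Alternatives changed the matching limit, moderation, scaling, window, low-signal filter and the pools used. All 34 genes and every called dyad or gene are named. Where a comparison called fewer than 4, the 4 with the smallest p are named, and of the wild-type measures each paralog set and the 3 highest and 3 lowest genes. The genes, classes and lists were chosen with earlier results of these data known.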

Additional observations from a re-analysis of the deposited data

How the results depend on the processing

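Of 180 alternative values for 20 tests and 4 class differences, 135 stayed the same, 44 moved and 1 reversed its sign. Here the same means an equal or similar count, or a class difference within the wild-type SD of the main value. A moved class difference kept its sign. For 10 tests there were 0 calls under every setting. The calls are counts of dyads or genes among the 34 genes. For position in Ioc3-KO all calls were lost with mean read positions and without any 1 wild-type pool. They were also lost with a matching limit of 50 bp, which drops the called dyads of the 34 genes before testing. For position over all Ioc3 pools, leaving out 1 pool gave 0 to 1 calls. For fuzziness, calls in Ioc3-KO were 2 without the weakest 25% of dyads and 0 to 3 with 1 pool left out, and 0 to 2 in Ioc3-Q251K/D252K with 1 pool left out. For peak height in Ioc3-KO the 2 calls became 7 with robust moderation and 5 to 13 with 1 pool left out. In Ioc3-Q251K/D252K the 3 became 5 to 9 with 1 pool left out. For all Ioc3 pools the 3 became 6 with robust moderation, 0 to 6 with 1 pool left out and 0 with heights as deposited. Without the weakest 25% of dyads none of these height calls remained, since that step removes all 8 dyads before testing, and 7, 5 and 5 other dyads were called. DESeq2 called 1 gene for body reads and 1 for promoter reads in Ioc3-KO. The promoter call of PFK1 became 0 with 400 bp, 0 with the window to 100 bp after the start codon, an alternative chosen after seeing the data, and 0 without any 1 pool. Without the weakest 25% of nucleosomes, the active minus repressed difference was 356.5 bp for promoter gap width (main 24.2 bp), -1.19 for log2 read density (main -0.24), 0.23 bp for fuzziness (main 1.73 bp) and 15.4 bp for spacing (main -14.6 bp, reversed). Log2 density was -0.34 without ENO1, GLK1 and TDH1. The cause of the other changes was not tested. Leaving out a wild-type pool leaves 1 residual degree of freedom for single genotypes. No paired analysis was possible because both replicates of a group are joined in 1 list. Depth limits promoter dyads of low height, some of which hold fewer than 20 reads.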
